A study of Cavia porcellus with 12 samples.

Results

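The annexin genes examined here are those of a list of 8 (*ANXA1*, *ANXA2*, *ANXA3*, *ANXA4*, *ANXA5*, *ANXA6*, *ANXA7* and *ANXA11*) that have a row under their human symbol in the deposited expression table of guinea pig liver, and 7 of the 8 do, out of 11896 symbols. *ANXA2* has no row under its symbol in that table and is not analysed here. The animals were female Dunkin Hartley guinea pigs of the same starting age, kept on their diet for 25 weeks. Controls (n = 6) received chow and had neither NASH nor fibrosis, whereas guinea pigs with NASH (n = 6) received a high-fat diet with sucrose and cholesterol and were chosen for bridging fibrosis, so that diet, disease and this choice cannot be told apart. RNA came from the left lateral lobe of nonperfused livers, and each animal gave 1 stranded mRNA library.

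Annexins are proteins that attach to acidic phospholipids of membranes when calcium rises, through a conserved core of annexin repeats, while their differing amino-terminal ends bind partners such as S100 proteins. They take part in membrane repair, vesicle transport, blood clotting control and the restraint of inflammation. In liver, different annexins are known from hepatocytes, bile duct epithelium, stellate cells, endothelium and leukocytes, and bulk RNA of a whole liver piece adds all of these up. Fewer cells of a type and less RNA per cell cannot be told apart in such samples.

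Libraries held between 16980274 and 33091460 counts. Levels are CPM values on library sizes scaled by TMM, a method that allows for unequal composition between libraries. Its factors were 0.804 to 0.875 in controls, against 1.12 to 1.24 in NASH, so the choice of scaling matters for genes with small differences. The test was edgeR's quasi-likelihood test, fitted to all 11896 symbols, and symbols whose p-value stayed under 0.05 after Benjamini-Hochberg adjustment are called differentially expressed genes (DEGs). By this test 53.9% of all symbols were DEGs, 27.9% with a higher level in NASH (3318) and 26.0% with a lower one (3093). With library size alone in place of TMM, the median gene moved from a log2 fold change of 0.00 to 0.48 and the DEGs split into 7603 higher and 911 lower. Marker genes of hepatocytes were present in every animal, with *ALB*, the gene of serum albumin, at 74883 ± 7812 CPM (SD, n = 6) in controls and 30535 ± 5726 CPM (SD, n = 6) in NASH.

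Of the 7 annexins, 4 were higher in guinea pigs with NASH (*ANXA1*, *ANXA3*, *ANXA5* and *ANXA11*), none was lower, and *ANXA4*, *ANXA6* and *ANXA7* did not pass the test. At an unadjusted p under 0.05 edgeR likewise gave 4 higher and 0 lower, as did DESeq2 and limma-voom after adjustment. Over both directions, 6989 of the 11896 symbols had an unadjusted p under 0.05 by edgeR, and 56.2% passed after adjustment by DESeq2. The 4 rises ran from 2.11-fold to 10.1-fold, and in each of the 4 genes the groups did not overlap. Among all symbols, 18.4% had every NASH animal above every control, and 15.3% had every NASH animal below. The median log2 fold change of the 7 genes was 1.08, against 0.00 over all symbols tested. Each of the 7 genes has a count row to itself, so no other symbol shares its values, although whether an assembled locus also takes in reads of a neighbouring gene without a symbol was not checked. The lowest count of any of them in an animal was 19.

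**Figure D1:**
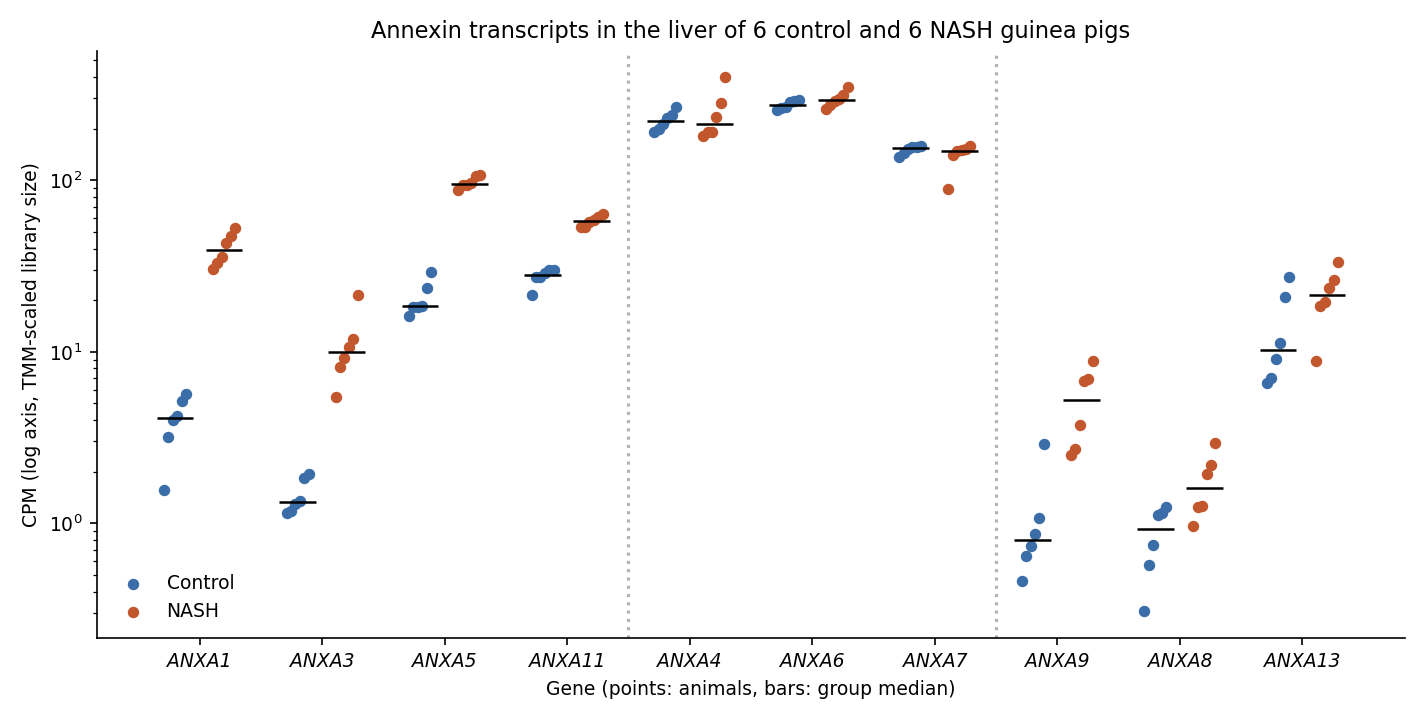
Levels of annexin transcripts in each animal, in CPM on a log axis, with controls in blue, guinea pigs with NASH in orange and bars at the group medians. The 4 genes left of the first dotted line show no overlap between groups, the next 3 overlap, and right of the second line stand 3 further annexins outside the list of 8.

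*ANXA1* encodes a glucocorticoid-inducible protein that limits leukocyte recruitment through formyl peptide receptors. Its level ran from 1.57 to 5.65 CPM in controls, with a median of 4.12 CPM, and from 30.4 to 52.6 CPM in NASH, with a median of 39.4 CPM. The lowest NASH animal was thus several times above the highest control. This was the largest change among the 7 genes (log2 fold change 3.33, SE 0.25, edgeR adjusted p = 5.49e-07), or 10.1-fold with a 95% interval from 6.89 to 14.8, higher than that of 98.3% of all symbols tested. The counts behind it were between 22 and 1688.

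Control 5 had the lowest *ANXA1* level, at 1.57 CPM, while the other 5 controls lay at 3.17 CPM or above. Control 5 was also the lowest control in *ANXA5* and *ANXA11*, and it had the lowest sum of macrophage markers, at 397.7 CPM. Without control 5 the log2 fold change of *ANXA1* was 3.18, and the 4 rises all remained.

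*ANXA3*, which is expressed in several epithelia and myeloid cells, was the least abundant of the 4 in counts, with between 19 and 692 per animal. In controls it ran from 1.15 to 1.95 CPM around a median of 1.33 CPM. In NASH it ran from 5.43 CPM in NASH 65 to 21.6 CPM in NASH 20, with a median of 9.92 CPM. The animals with NASH therefore differed among themselves by 3.97-fold, the widest spread of the 7 genes in that group. The log2 fold change was 2.93 (SE 0.31, edgeR adjusted p = 7.33e-06), which is 7.65-fold with a 95% interval from 4.78 to 12.2.

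*ANXA5* encodes the annexin that binds exposed phosphatidylserine, and the protein is used as a stain for dying cells. It was between 16.1 and 29.3 CPM in controls (median 18.4 CPM) and between 88.3 and 107 CPM in NASH (median 95.5 CPM). The NASH animals lay close together, with a coefficient of variation of 7.48%, against 23.6% in controls. The rise was 4.72-fold with a 95% interval from 3.85 to 5.78 (log2 fold change 2.24, SE 0.13, edgeR adjusted p = 1.21e-07). Of the 4 genes that rose, *ANXA5* had the smallest adjusted p-value.

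*ANXA11* encodes an annexin with a long amino-terminal end that binds the calcium sensor ALG-2 and acts in the last steps of cell division and in the transport of RNA granules. Controls had from 21.4 to 30.2 CPM (median 28.0 CPM) and NASH animals from 53.1 to 64.0 CPM (median 57.9 CPM). Both groups were tight, and control 5 stood below the other controls. The change was 2.11-fold, or 1.08 on the log2 scale with a 95% interval from 0.89 to 1.27 (SE 0.09, edgeR adjusted p = 7.78e-07). It was the 1 gene of the 4 that did not pass when edgeR tested for a change beyond 1 on the log2 scale (adjusted p = 0.49).

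*ANXA4*, an annexin of secretory and biliary epithelium, was between 190.9 and 266 CPM in controls (median 220.9 CPM) and between 181 and 398 CPM in NASH (median 213 CPM). The ranges overlapped and the NASH median lay below that of the controls, although the NASH mean of 246 ± 83.2 CPM (SD, n = 6) lay above the control mean of 223 ± 27.9 CPM (SD, n = 6). The log2 fold change was 0.14 (SE 0.18, edgeR adjusted p = 0.531), with a 95% interval from −0.25 to 0.54. The 398 CPM came from NASH 20, and without this animal the log2 fold change was −0.05 (adjusted p = 0.791 from edgeR).

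*ANXA6*, the largest annexin, which has been studied in endosomes and in the handling of LDL and cholesterol, ran from 255 to 293 CPM in controls (median 276 CPM). In NASH it ran from 259.6 to 347 CPM, with a median of 293 CPM. The NASH median was about as high as the highest control, and the groups overlapped. The log2 fold change of 0.10 (SE 0.08, edgeR adjusted p = 0.278) had a 95% interval from −0.06 to 0.27, so the interval allows a fold of at most 1.21. *ANXA6* was the steadiest of the 7 in NASH apart from *ANXA5* and *ANXA11*, with a coefficient of variation of 10.5%.

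*ANXA7*, also named synexin, which binds the calcium-binding protein sorcin, was between 136.9 and 159 CPM in controls (median 154 CPM) and between 88.5 and 159 CPM in NASH (median 148 CPM). NASH 11 alone was at 88.5 CPM, from 2701 counts, and the other 5 animals with NASH were at 140.1 CPM or above, within or near the range of the controls. The log2 fold change was −0.11 (SE 0.12, edgeR adjusted p = 0.452), with a 95% interval from −0.37 to 0.15. Without NASH 11 it was −0.01 (adjusted p = 0.904 from edgeR).

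With library size alone, all 7 annexins were higher by edgeR's test, as were 63.9% of all symbols, while 7.66% were lower. *ANXA4* was then at a log2 fold change of 0.63 (adjusted p = 0.0092), *ANXA6* at 0.58 (adjusted p = 3.26e-05) and *ANXA7* at 0.36 (adjusted p = 0.0173 from edgeR). The last of these was a reversal of direction, and it was smaller than the shift of the median gene, 0.48. The calls of *ANXA1*, *ANXA3*, *ANXA5* and *ANXA11* were the same under TMM, RLE, upper-quartile factors and library size alone.

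**Figure D2:**
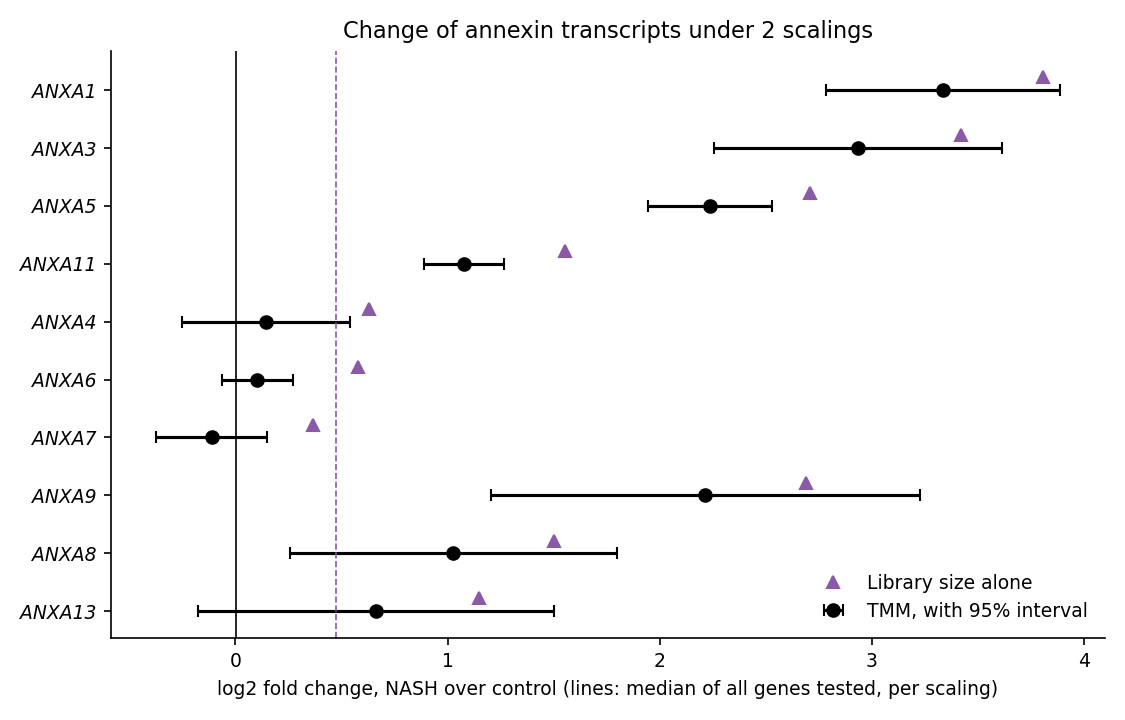
The log2 fold change of each annexin, NASH over control, by edgeR with TMM scaling (black points with 95% intervals) and with library size alone (purple triangles), where lines mark the median of all genes under each scaling. The 4 genes at the top lie right of both lines, whereas *ANXA4*, *ANXA6* and *ANXA7* lie near the median line of either scaling.

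Because both genes of a pair are read from the same library, the ratio of 2 annexins in an animal is nearly free of the scaling (a prior count of 2 is added to each), and it shows whether they changed unequally. The log2 ratio was compared between groups for all 21 pairs by exact permutation of the 12 animals, two-sided, with p-values adjusted over the 21 pairs. In 16 pairs the groups did not overlap and the p-value was 0.00216, the smallest that 6 animals against 6 allow (adjusted p = 0.00284).

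*ANXA1* gained 1.14 on the log2 scale over *ANXA5*, with a 95% interval from 0.61 to 1.67. *ANXA5* in turn gained 1.18 over *ANXA11*, with an interval from 0.89 to 1.45. *ANXA11* gained 0.98 over *ANXA6*, 0.99 over *ANXA4* and 1.22 over *ANXA7*. In rlog values, which are damped at low counts, the gains were smaller, at 0.46 for *ANXA1* over *ANXA5* and 0.73 for *ANXA5* over *ANXA11*, and both passed. *ANXA5* stood below *ANXA11* in CPM in controls and above it in NASH, which is an order of read counts that also depends on transcript length, not an order of transcript numbers.

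The other 5 pairs did not pass the exact permutation test. *ANXA1* over *ANXA3* differed by 0.63 (p = 0.0606, adjusted p = 0.0749 in the exact test), with an interval from −0.03 to 1.35, and *ANXA3* over *ANXA5* by 0.50 (exact p = 0.0801, adjusted p = 0.0934), with an interval from −0.10 to 1.13. The place of *ANXA3* beside *ANXA1* and *ANXA5* was thus not settled by these 12 animals. Without NASH 20 the former difference was 0.77 and passed (adjusted exact p = 0.0374), as it did without NASH 41 and in rlog values (0.68, adjusted exact p = 0.00303), and without NASH 65 the latter was 0.65 and passed (adjusted exact p = 0.0267). In rlog values *ANXA3* over *ANXA5* turned to −0.22 and did not pass (adjusted exact p = 0.182). Among the 3 annexins that were not DEGs, *ANXA4* over *ANXA6* differed by −0.01 (exact p = 0.983, interval from −0.42 to 0.46), *ANXA4* over *ANXA7* by 0.23 (exact p = 0.424, interval from −0.35 to 0.87) and *ANXA6* over *ANXA7* by 0.24 (exact p = 0.132, interval from −0.05 to 0.58).

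**Figure D3:**
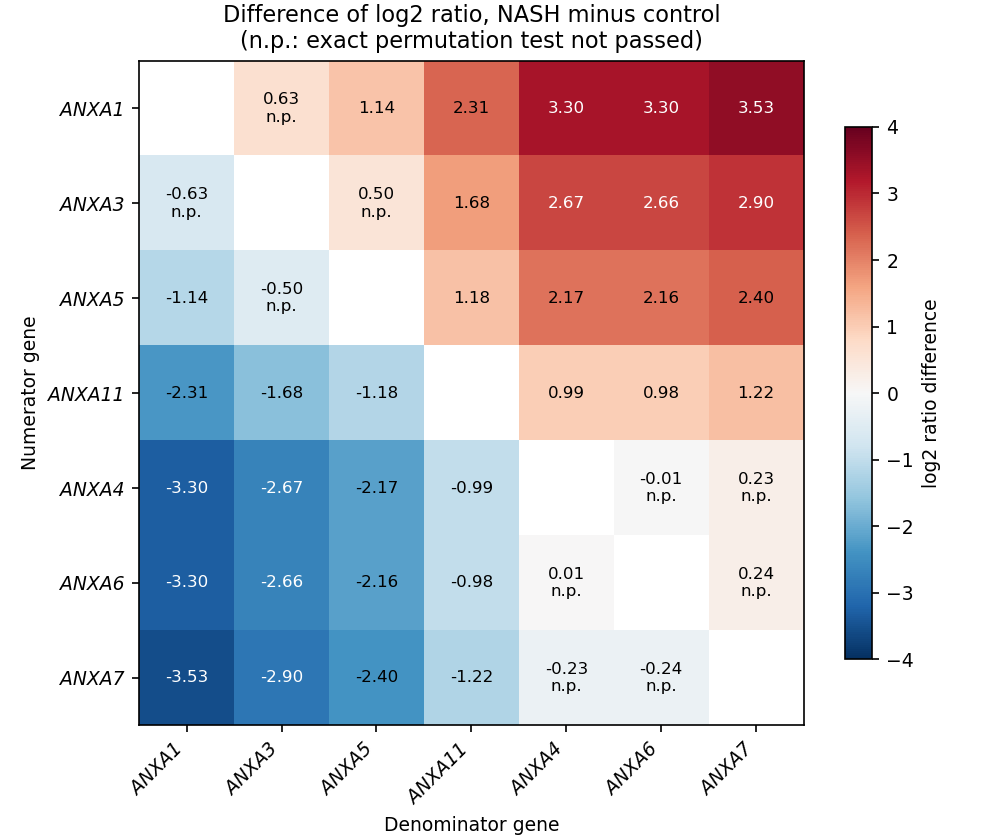
Change of the log2 ratio of every pair of annexins, NASH minus control, with the numerator gene on the rows, the denominator gene on the columns and the value in each cell. Cells marked n.p. did not pass the exact permutation test, and the 16 pairs that passed range from 0.98 to 3.53 in size.

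Within the NASH group, NASH 20 had the highest level of *ANXA1*, *ANXA3*, *ANXA4* and *ANXA5*, the most of any animal. *ANXA11* was highest in NASH 2, *ANXA6* in NASH 65 and *ANXA7* in NASH 41. NASH 65 had the lowest *ANXA3* and *ANXA5*, while NASH 41 had the lowest *ANXA1* and *ANXA4*. In controls, control 56 was highest in *ANXA3*, *ANXA5* and *ANXA6*.

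Cell type markers also differed between these animals. The summed level of 7 cholangiocyte markers found of 9 listed was highest in NASH 20, at 604 CPM, and lowest in NASH 65, at 349.6 CPM. The sum of the 10 stellate cell and fibroblast markers was again highest in NASH 20, at 3029 CPM, and lowest in NASH 65, at 1539 CPM. Hepatocyte markers ran the other way, at 41164 CPM in NASH 20 and 62714 CPM in NASH 65, the lowest and the highest sums of the group. The part of these differences in the annexin levels was not tested.

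**Figure D4:**
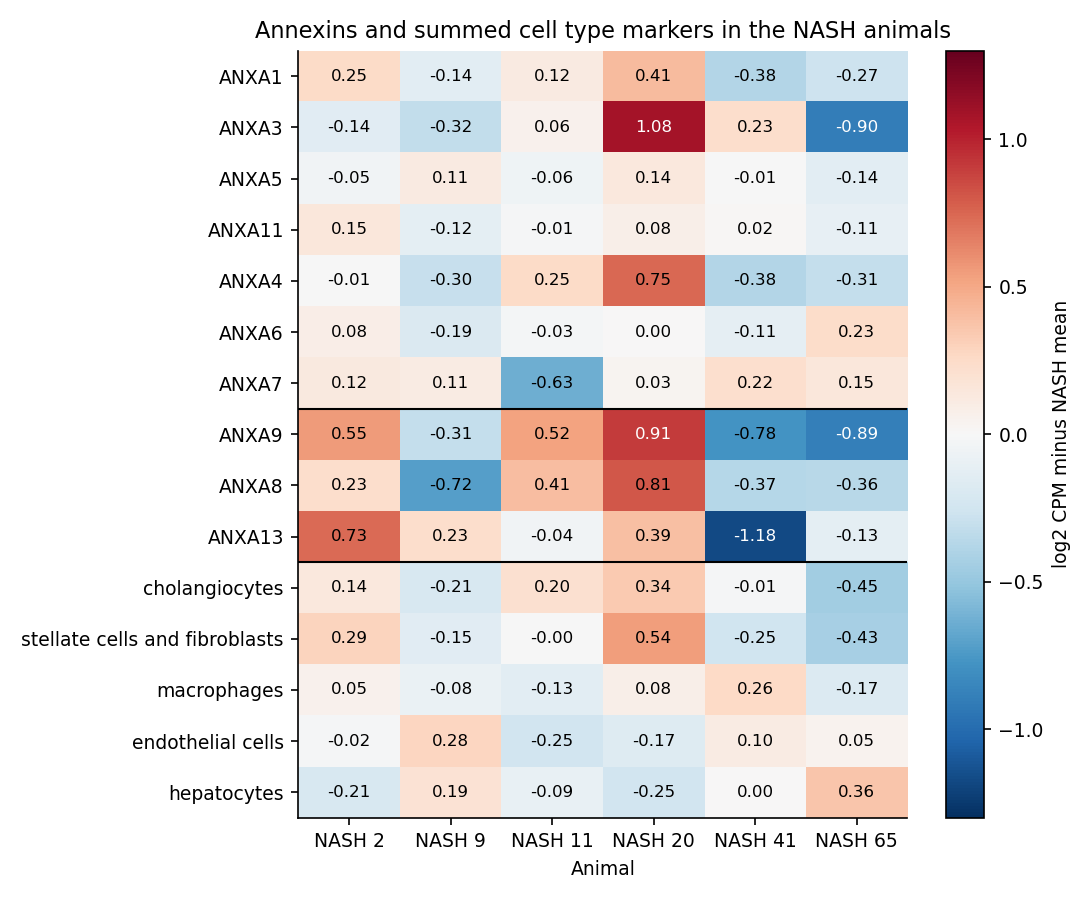
Level of each annexin, and below it the summed level of the markers of 5 cell types, in each animal with NASH, as log2 CPM minus the mean of the NASH group. NASH 20 is at 1.08 for *ANXA3* and at 0.75 for *ANXA4*, and NASH 11 is at −0.63 for *ANXA7*.

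Marker levels also differed between the groups. The counts of markers below stand beside 27.9% higher and 26.0% lower over all symbols. Of the 7 cholangiocyte markers, 6 were higher and none was lower in NASH, and their sum ran from 93.8 to 143 CPM in controls and from 349.6 to 604 CPM in NASH. The bile duct keratin gene *KRT19* ran from 34.7 to 70.5 CPM in controls and from 140.5 to 213 CPM in NASH. Of the 10 stellate cell and fibroblast markers, 8 were higher and 1 was lower, with sums from 731.6 to 883 CPM and from 1539 to 3029 CPM. Of 8 macrophage markers found of 10, 4 were higher and 1 was lower, with sums from 397.7 to 711 CPM in controls and from 955.7 to 1294 CPM in NASH. Most of this rise was *GPNMB*, at a mean of 54.0 CPM in controls and 498 CPM in NASH, and the means of the other 7 markers summed to 510.2 and 586 CPM, with *MARCO* lower. *TREM2*, a lipid receptor of macrophages, had no count in 5 of the 6 controls. Of the 9 hepatocyte markers found of 10, none was higher and 7 were lower, with sums from 99294 to 123247 CPM in controls and from 41164 to 62714 CPM in NASH. Endothelial marker sums overlapped, at 529 to 722.7 CPM in controls and 600.1 to 866 CPM in NASH, with 3 of 8 genes higher and 1 lower. Neutrophil markers were scarce, with 3 of 7 found (2 higher) and sums of at most 10.5 CPM, and of 5 T cell markers found of 7, 1 was higher and 1 lower. All 6 erythroid markers found of 8 were higher, with sums from 58.3 to 173 CPM in controls. In NASH these sums were 4627 CPM in NASH 41 and 3342 CPM in NASH 65, the animals lowest in *ANXA1* and *ANXA4* and in *ANXA3* and *ANXA5*, and between 439 and 736 CPM in the other 4 animals. The part of any of these cell types in the rises of *ANXA1*, *ANXA3*, *ANXA5* and *ANXA11* was not tested.

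Of 5 further annexin genes, 4 have a row in the table under their symbols. *ANXA9*, an annexin that has lost residues for calcium binding, was between 0.462 and 2.89 CPM in controls and between 2.49 and 8.85 CPM in NASH, with medians of 0.799 and 5.26 CPM. The groups overlapped through control 31 alone, at 2.89 CPM, while the other 5 controls were at 1.08 CPM or below. Its log2 fold change was 2.21 (SE 0.47, edgeR adjusted p = 0.00146), and 2.79 without control 31. *ANXA8* and *ANXA8L1* stand on the same count row, with 6 to 94 counts per animal, so they are 1 measurement of either or both genes. That row was between 0.308 and 1.24 CPM in controls and between 0.963 and 2.93 CPM in NASH (log2 fold change 1.03, SE 0.36, edgeR adjusted p = 0.0269). This call was lost when control 5, control 31, NASH 11 or NASH 20 was left out, with adjusted p-values of 0.0512 to 0.0656 from edgeR and log2 fold changes of 0.82 to 0.99.

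*ANXA13*, an annexin of gut epithelium, did not pass the test. It was between 6.61 and 27.1 CPM in controls and between 8.85 and 33.5 CPM in NASH (log2 fold change 0.66, SE 0.39, edgeR adjusted p = 0.169). Without control 10, the highest control, it was 0.98 (adjusted p = 0.0399 from edgeR). NASH 20 was the highest NASH animal for *ANXA9* and *ANXA8* as well, but not for *ANXA13*, which was highest in NASH 2.

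For each of the 7 annexins, the genes with the most similar profile were found by the root mean square difference between rlog values (log2 levels damped at low counts), each centred on its own mean over the 12 animals. This is a description without a test, and a like difference between the groups by itself brings genes near each other. *ANXA1* was nearest to *LGALS1*, which encodes galectin-1, at 0.14, and to *MREG* at 0.15, where the median over all symbols was 0.95. *LGALS1* had a log2 fold change of 3.25 and *MREG* of 3.40. *ANXA5* was nearest to *PDLIM1*, a gene of a cytoskeletal adaptor, at 0.08 and to *TNFRSF21* at 0.12, and *ANXA3* to *TK1*, the thymidine kinase of dividing cells, at 0.13 and to *SLC1A4*, an amino acid transporter gene, at 0.16. *ANXA11* was nearest to *IL34* at 0.03 and to *MAGED4B*, which shares its row with another symbol, at 0.05. *ANXA4* was nearest to *PRDX4* and *FNDC5* (0.12 and 0.13), *ANXA6* to *WDFY3* and *NOLC1* (0.05 and 0.06) and *ANXA7* to *ARFGAP1* and *ZNF335* (0.08 each). The median over all symbols was smaller for these annexins than for *ANXA1*. It was 0.72 for *ANXA5*, 0.65 for *ANXA3*, 0.37 for *ANXA11*, 0.26 for *ANXA4*, 0.17 for *ANXA6* and 0.21 for *ANXA7*. No annexin had another annexin among its 2 nearest genes. *ANXA5* was the nearest of the family to both *ANXA1*, at 0.29, and *ANXA3*, at 0.25.

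Genes that work with annexins were taken from 5 lists. S100 proteins are small calcium-binding proteins, some of which join annexins into larger assemblies at membranes. Of 14 listed S100 genes 8 were found, of which 3 were higher and 2 lower, against the shares of 27.9% higher and 26.0% lower over all symbols. *S100A11*, whose protein is the known partner of annexin A1, rose from between 3.62 and 9.22 CPM in controls to between 20.4 and 35.8 CPM in NASH, without overlap (log2 fold change 1.99, SE 0.21, edgeR adjusted p = 6.87e-06). *S100A4*, known from fibroblasts and leukocytes, rose most, from 3.76 ± 1.24 to 23.9 ± 6.85 CPM (SD, n = 6 each, log2 fold change 2.66, SE 0.24, edgeR adjusted p = 1.84e-06). *S100B* had the lowest log2 fold change, −4.12 (SE 1.01, edgeR adjusted p = 0.00401), with controls from 0.186 to 14.4 CPM and NASH animals from 0.105 to 0.655 CPM, and counts as low as 3, so that the groups overlapped. The 14.4 CPM came from control 45, with the next control at 5.65 CPM, and without control 45 the log2 fold change of *S100B* was −3.12 (edgeR adjusted p = 0.0111). *S100A16* fell by 0.35 on the log2 scale, but its sign turned to 0.13 with library size alone. *S100A10* and *S100A6*, both known annexin partners, have no row under their symbols.

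Annexin A1 acts through formyl peptide receptors and holds back the release of arachidonic acid, from which eicosanoids are made. None of the 3 formyl peptide receptor genes has a row under its symbol, so no receptor level is given. Of the 4 eicosanoid genes found, *ALOX5AP* was higher (log2 fold change 0.68, SE 0.24, edgeR adjusted p = 0.027), and the cyclooxygenase gene *PTGS1* was lower, at −0.70 (SE 0.26, edgeR adjusted p = 0.0395). *PTGS1* was at 3.29 CPM in control 5 and between 10.3 and 12.4 CPM in the other controls. Both calls were lost in the test without control 10 or without control 45, that of *ALOX5AP* also without NASH 9, and that of *PTGS1* without most other single animals too. Without control 5, *PTGS1* was at −0.87 and passed (edgeR adjusted p = 0.000633). *ALOX5* did not pass with all animals (−0.43, edgeR adjusted p = 0.305), but did without control 5 (−0.64, edgeR adjusted p = 0.00967). *PLA2G4A*, the cytosolic phospholipase A2 gene, did not pass the test (log2 fold change 0.32, SE 0.17, edgeR adjusted p = 0.126). It passed without control 56 (0.43, edgeR adjusted p = 0.0355) and with library size alone (0.78, edgeR adjusted p = 0.00156).

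Annexins gather at torn plasma membrane together with ferlins, calpains, EHD proteins and the ESCRT machinery, and ALG-2 (encoded by *PDCD6*) and sorcin (encoded by *SRI*) bind annexins A11 and A7. Of 20 listed genes 17 were found, 7 higher and 3 lower, where 27.9% of all symbols were higher and 26.0% lower. The ferlin gene *MYOF* rose from between 1.21 and 3.28 CPM in controls to between 15.5 and 33.3 CPM in NASH (log2 fold change 3.34, SE 0.23, edgeR adjusted p = 2.99e-07). *CAPN2*, the large subunit of a calcium-activated protease, rose by 2.99 on the log2 scale (SE 0.17, edgeR adjusted p = 8.35e-08). The related *CAPN1* and the shared small subunit *CAPNS1* rose by 0.80 and 0.71, and the caveola genes *CAVIN1* and *EHD2* by 1.12 and 1.14. *CAV1*, the gene of the main caveola protein, did not pass the test, at −0.15 (edgeR adjusted p = 0.584). *DYSF*, the ferlin gene best known from muscle, was at 0.22 (adjusted p = 0.198 from edgeR). *PDCD6* was at −0.02 (SE 0.07, edgeR adjusted p = 0.785), close to the median of all genes.

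*SRI* was lower, at −0.22 (SE 0.07, edgeR adjusted p = 0.0193), as were the ESCRT genes *TSG101*, at −0.31, and *CHMP2A*, at −0.35. Of the other ESCRT genes, *VPS4B* was at 0.20 and passed narrowly (edgeR adjusted p = 0.0467), and *CHMP4B* and *VPS4A*, at −0.15 each, did not pass the test. *VPS4A* shares its count row with another symbol. The call of *VPS4B* was lost when any of 9 single animals was left out, while *CHMP4B* passed without control 5 or control 56 and *VPS4A* without control 45, NASH 2 or NASH 65. With library size alone *SRI*, *TSG101* and *CHMP2A* were at 0.26, 0.17 and 0.13 and so turned direction, and all 5 ESCRT genes were above 0, while the rises of *MYOF* and *CAPN2* lay far above the shift of the scaling.

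Of the genes of plasmin formation at the cell surface, 8 of 9 listed were found, 6 higher and 2 lower. The shares over all symbols were 27.9% higher and 26.0% lower. The tissue plasminogen activator gene *PLAT* rose by 0.67 (SE 0.16, edgeR adjusted p = 0.00314) and the urokinase gene *PLAU* by 1.59. *PLG*, the hepatocyte gene of plasminogen itself, fell from 3949 ± 145 to 2478 ± 293 CPM (SD, n = 6 each), which is −0.67 on the log2 scale (edgeR adjusted p = 3.59e-05). The gene of the receptor of annexin A2 was not found.

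The lipid that annexin A5 binds, phosphatidylserine, is kept on the inner membrane face by flippases, exposed by scramblases and read by bridging proteins and receptors. Of 16 listed genes 14 were found, 6 higher and 3 lower, beside 27.9% higher and 26.0% lower over all symbols. The flippase gene *ATP8A1* rose from 26.1 ± 4.71 to 131 ± 30.0 CPM (SD, n = 6 each, log2 fold change 2.33, SE 0.16, edgeR adjusted p = 2.67e-07). The scramblase gene *ANO6* rose by 1.52 (adjusted p = 1.76e-05 from edgeR) and *PLSCR3* by 1.34, whereas *PLSCR1* was at 0.14 and *PLSCR4* at 0.24, neither past the test. Of the bridging proteins, *MFGE8* rose by 0.87, while *GAS6* fell by 0.83 and *PROS1* fell by 0.59. With library size alone *GAS6* was at −0.36 (edgeR adjusted p = 0.0497) and *PROS1* at −0.11 (edgeR adjusted p = 0.386), so that the call of *PROS1* was lost. *MFGE8* shares its count row with another symbol, as does *AXL*. The receptor genes *MERTK* and *AXL* rose by 0.51 and 0.23, and *TYRO3* was at 0.75 without passing the test (adjusted p = 0.139 from edgeR), and passed without control 45, at 1.10 (adjusted p = 0.033 from edgeR).

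**Figure D5:**
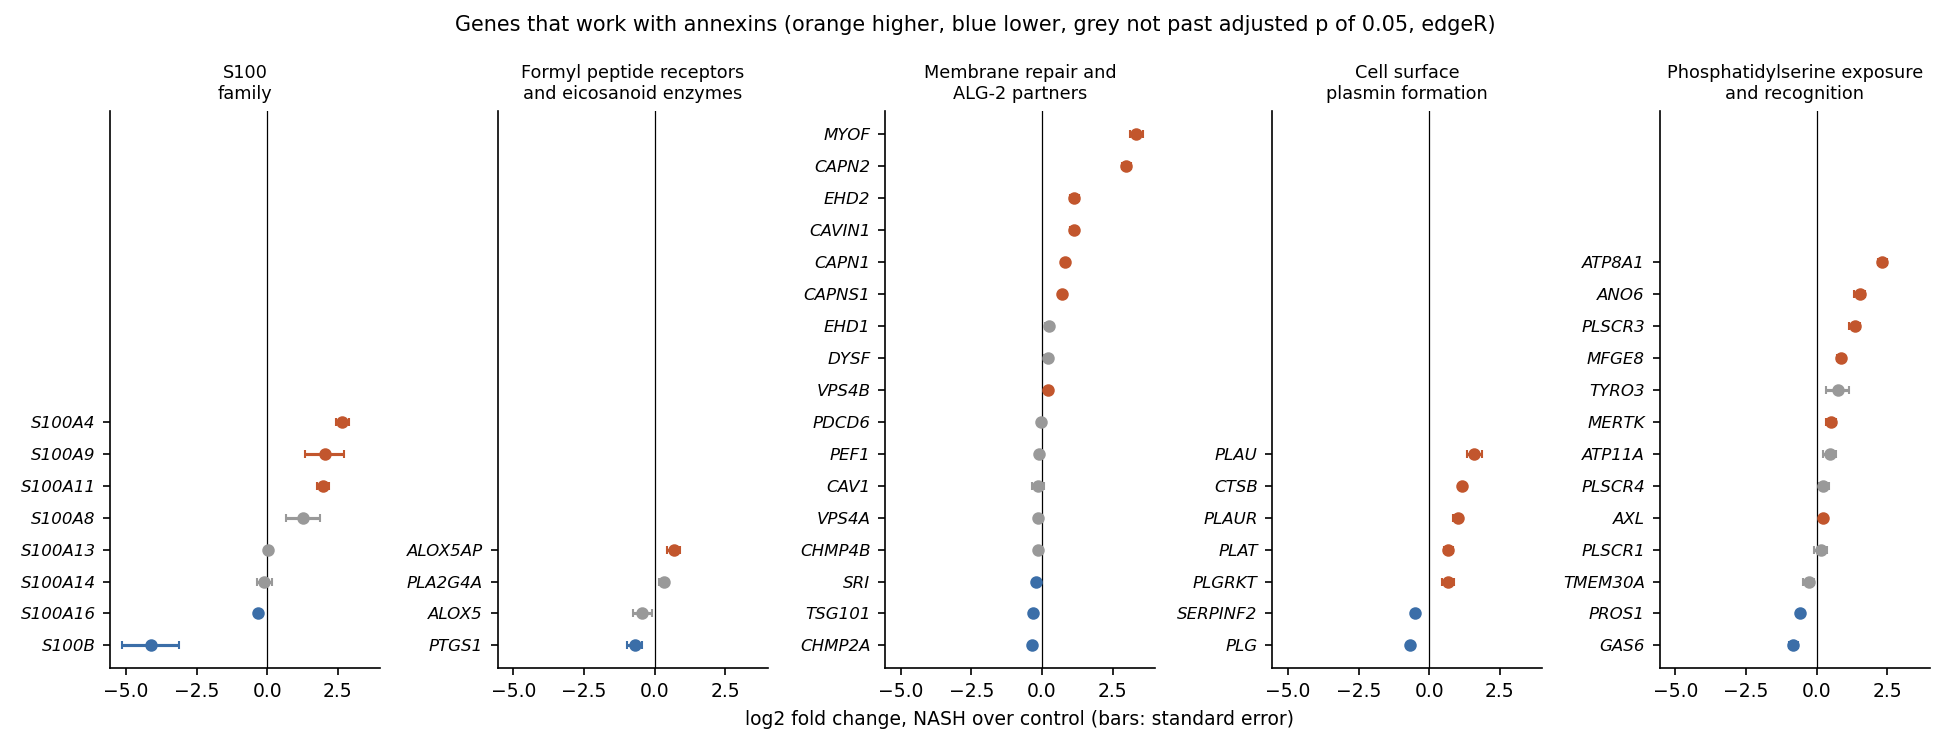
The log2 fold change of the genes shown from 5 lists of genes that work with annexins, NASH over control, with bars for the standard error. Orange genes were higher, blue genes lower and grey genes not past the adjusted p of 0.05 by edgeR, and of the genes shown *MYOF* lies highest at 3.34.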

How the data were processed

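Liver RNA of 12 guinea pigs was sequenced as stranded, single-read mRNA libraries. Per the paper's methods and the labels, reads were trimmed with Trimmomatic 0.38.0, mapped to Cavpor3.0 with HISAT2 2.1.0 without multimapped reads, and assembled and quantified with StringTie 1.3.6. The authors deposited raw counts per locus (39061 rows) and log2 values from the rlog transformation of DESeq2 for 11896 human orthologue symbols with at least 200 counts in total. Gene models, transcript lengths and sequences were not used here, so levels are compared within genes.

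The count table carries no symbols. Symbols were therefore matched to count rows through their rlog values, by rerunning the transformation until the matches were stable, and then differed from the deposited values by about 8e-07 at most. The 11896 symbols came from 11031 rows. The test on counts used edgeR 4.0.16 under R 4.3.3 (TMM, library size over all rows, glmQLFit with robust estimation, glmQLFTest) without covariates, since no batch is named. The standard error is the absolute log2 fold change over the square root of F, and log2 CPM uses a prior count of 2. Intervals of pair ratios invert the exact permutation test. Alternatives were RLE and upper-quartile factors, library size alone, DESeq2 1.42.0, limma-voom (limma 3.58.1), other gene filters, an adjusted p limit of 0.01, edgeR's glmTreat with a log2 limit of 1, and leaving out single animals. Within groups, libraries differed by at least 41.9 times counting error (chi-square per degree of freedom), so none was taken as a duplicate. The matching of rows and the edgeR, DESeq2 and limma-voom fits were tested on simulated data, but the exact permutation test was not. Figures were drawn with matplotlib 3.10.9.

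Annexins, gene lists and markers were chosen with earlier results of these data known. Named are all annexins, the highest and lowest gene of each list, known annexin partners and the 2 nearest genes per annexin, except 2 genes of the lists that are counted but not reported here. Other genes of the lists, the markers *ALB*, *KRT19* and *TREM2* among them, were named after their values were seen. The p-values set the difference between the groups against the spread between these animals.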

Additional observations from a re-analysis of the deposited data

Results flagged for a closer look

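In 24 genes named in the text, the highest or lowest animal of each group of 6 was compared with the others by its gap to the nearest animal over the range of the group in log2 CPM, and set apart where this passed Dixon's 95% critical value. Of the 48 groups, 3 had such an animal, and chance gives about 1 in 20 groups. *ANXA7* was at 88.5 CPM in NASH 11, against 140.1 CPM in the next animal with NASH (gap over range 0.783). *ANXA11* was at 21.4 CPM in control 5, against 27.1 CPM in the next control (0.695). *PTGS1* was at 3.29 CPM in control 5, against 10.3 CPM in the next control (0.855). Control 5 was thus the animal apart in 2 of the 3 cases.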

How the results depend on the processing

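The groups are different animals, and no paired analysis was made. Per the paper, animals were assigned to groups by block randomisation on body weight, and blocks were not a term of the test. Of the 22 alternatives, the calls and directions of *ANXA1*, *ANXA3* and *ANXA5* were the same in all 22. *ANXA11* lost its call when tested for a change beyond 1 on the log2 scale and kept it in the other 21. With library size alone, 7 annexins were higher (all genes 7603 higher and 911 lower), *ANXA7* turned to 0.36, and the lists had 5 higher and 1 lower (S100), 2 and 0 (formyl peptide receptors and eicosanoid enzymes), 15 and 0 (membrane repair), 1 lower (plasmin formation) and 10 higher (phosphatidylserine). Tested for a change beyond that limit, 1100 genes were DEGs (853 higher, 247 lower), and the lists had 1 lower (S100), 1 higher (other annexins), 0 and 0 (eicosanoid), 2 and 0 (membrane repair), 1 and 0 (plasmin) and 2 and 1 (phosphatidylserine). With every count row, 10813 rows were DEGs (5985 higher, 4828 lower), and with filterByExpr 9823 (5089 higher, 4734 lower), where more rows were tested. In both, S100 had 1 lower and the eicosanoid list 0 lower, and with every row membrane repair had 1 lower. With DESeq2, and with each count row once, membrane repair had 5 lower. limma-voom gave 1 lower (S100), 1 higher (other annexins) and 0 lower (eicosanoid). Upper-quartile factors gave 0 lower (eicosanoid). A threshold of 0.01 gave 1 higher (other annexins) and 0 and 0 (eicosanoid). With each animal left out, other annexins had 1 to 4 higher (the shared row of *ANXA8* and *ANXA8L1* counts as 2 symbols) and the eicosanoid list 0 to 2 higher and 0 to 2 lower. Of 294 values of pair ratios under alternatives, 290 kept their call and 4 gained one, and 16 to 17 of the 21 pairs passed. Depth limits the genes with few counts, among them *ANXA8*, *S100A8*, *S100A9*, *S100B*, *ALOX5AP*, *TYRO3* and *TREM2*, with at most 6 counts in at least 1 animal.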
